A study of Homo sapiens with 24 samples.

Results

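The regions described here were the 108 sites at which all 6 tamoxifen libraries of the series held a very strong Flag ChIP-seq peak. Peaks with a −log10 q value of at least 20 (q at most 1e-20) on chromosomes 1 to 22 and X of the 6 lists were merged where they overlapped by 1 bp, and a merged region was kept if every list had such a peak in it. The sites were thus chosen by their tamoxifen q values, and those values are given below as a description only. The 108 sites were 0.906% of the 11915 merged regions that passed this threshold in at least 1 list. The series as a whole held 30322 sites that were called at q at most 1e-07 in at least 2 replicates of a condition.

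The cells were MCF-10A, a nontransformed human mammary epithelial line, that carries ER-Src, in which v-Src is joined to the hormone-binding part of the estrogen receptor and so can be switched on by a ligand. Lines that also stably expressed S100A8-Flag or S100A9-Flag from a retroviral vector under hygromycin selection were treated for 24 hours with 1 µM 4-hydroxytamoxifen (TAM), which activates v-Src, or with ethanol (EtOH) as the vehicle. Chromatin was cross-linked with protein-protein cross-linkers and then formaldehyde, and it was precipitated through the Flag tag. Peak lists of 3 S100A8-Flag TAM, 3 S100A9-Flag TAM, 2 S100A8-Flag EtOH and 3 S100A9-Flag EtOH libraries were used, and every group expressed a tagged protein. No sample of the series was labeled as a Flag ChIP of untagged cells, so that nonspecific Flag signal at these sites could not be assessed. The study's methods call the replicates biological, and neither they nor the labels say whether these were separate cultures, so that p values measure the spread between these libraries. The lists held 53439 to 109500 peaks in TAM and 9578 to 34653 in EtOH, and the read depth behind them is unknown.

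S100A8 and S100A9 are small calcium-binding proteins of the S100 family that pair with each other and are known mainly as secreted, inflammatory cytokines. They lack a conventional DNA-binding domain, and the paper presumes that DNA-binding proteins recruit them to chromatin. Such recruitment was not tested here. At promoters, ETS and KLF/SP1 factors bind close to the transcription start site (TSS), whereas AP-1, a dimer of Fos and Jun proteins, is known for binding distal enhancers in epithelial cells.

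Of the 108 sites, 70 (64.8%, 95% exact binomial interval 55.0 to 73.8%) had their summit in a promoter window, from 1500 bp before a protein-coding TSS to 250 bp after it, and were called promoter-proximal. The other 38 were called distal. The sequences around the summits of 11 sites are shown because the values below refer to them. They are the plus strand of hg19, up to 100 bp on either side of the summit, shortened where an annotated untranslated region began, and capitals mark exact matches to the searched motifs. The first 6 lie at promoters. They show the EPRS1 site with a KLF/SP1 match, the DUSP1 site with no match, the MRPS31 and ZNF678 sites with ETS (CGGAAG) and KLF/SP1 (CCCCGCCC) matches (and, at ZNF678, the YY1 letters AAGATGGCG), the HNRNPU site with 3 KLF/SP1 matches, and the BHLHE40 site with 2.
EPRS1 promoter, chr1:220219922-220220122: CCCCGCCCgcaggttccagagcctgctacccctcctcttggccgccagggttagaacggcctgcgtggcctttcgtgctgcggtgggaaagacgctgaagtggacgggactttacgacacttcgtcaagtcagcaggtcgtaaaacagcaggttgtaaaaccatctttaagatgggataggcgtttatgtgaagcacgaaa
DUSP1 promoter, chr5:172199437-172199637: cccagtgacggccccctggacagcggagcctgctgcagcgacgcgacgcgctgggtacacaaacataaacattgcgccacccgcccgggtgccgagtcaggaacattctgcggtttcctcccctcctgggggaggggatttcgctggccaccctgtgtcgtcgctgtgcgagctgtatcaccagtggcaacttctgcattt
MRPS31 promoter, chr13:41345327-41345481: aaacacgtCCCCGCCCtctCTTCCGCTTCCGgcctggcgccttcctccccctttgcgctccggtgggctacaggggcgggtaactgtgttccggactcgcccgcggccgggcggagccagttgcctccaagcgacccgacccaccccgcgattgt
ZNF678 promoter, chr1:227751426-227751625: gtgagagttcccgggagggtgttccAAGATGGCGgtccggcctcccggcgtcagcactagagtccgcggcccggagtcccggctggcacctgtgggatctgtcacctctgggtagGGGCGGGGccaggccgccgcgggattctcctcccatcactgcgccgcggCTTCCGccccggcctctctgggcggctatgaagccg
HNRNPU promoter, chr1:245027863-245028060: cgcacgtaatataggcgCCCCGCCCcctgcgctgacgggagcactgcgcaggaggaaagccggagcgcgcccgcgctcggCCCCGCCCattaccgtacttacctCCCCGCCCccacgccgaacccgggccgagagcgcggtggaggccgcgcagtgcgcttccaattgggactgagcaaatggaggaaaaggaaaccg
BHLHE40 promoter, chr3:5020368-5020568: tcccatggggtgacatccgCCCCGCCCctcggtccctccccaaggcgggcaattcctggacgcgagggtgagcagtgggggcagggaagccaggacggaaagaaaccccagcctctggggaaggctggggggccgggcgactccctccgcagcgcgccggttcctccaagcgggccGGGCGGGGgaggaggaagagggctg
The next 5 are distal. The GALNT2, RD3 and chromosome 2 sites hold AP-1 (TGAGTCA) matches, the site by the U1 small nuclear RNA gene RNVU1-18 holds a KLF/SP1 match, and the site downstream of the LARP1 promoter holds AP-1, C/EBP (TTGCNNAA), STAT3 (TTCCNGGAA) and TEAD (ACATTCC) matches within its 201 bp.
GALNT2 intron, chr1:230240551-230240751: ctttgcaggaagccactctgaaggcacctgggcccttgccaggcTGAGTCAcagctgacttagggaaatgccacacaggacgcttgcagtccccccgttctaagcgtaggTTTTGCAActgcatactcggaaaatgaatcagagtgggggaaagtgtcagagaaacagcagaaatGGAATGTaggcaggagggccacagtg
RD3 upstream, chr1:211688701-211688901: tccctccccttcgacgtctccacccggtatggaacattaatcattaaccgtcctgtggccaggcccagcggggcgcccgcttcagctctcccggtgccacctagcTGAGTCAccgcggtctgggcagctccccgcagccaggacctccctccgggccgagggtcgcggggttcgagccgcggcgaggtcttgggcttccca
Chromosome 2 pericentromeric, chr2:91787073-91787273: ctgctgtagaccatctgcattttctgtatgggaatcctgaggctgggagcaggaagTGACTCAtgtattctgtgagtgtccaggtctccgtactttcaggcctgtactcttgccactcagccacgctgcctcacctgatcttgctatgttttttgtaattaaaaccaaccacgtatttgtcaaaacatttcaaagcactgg
RNVU1-18, chr1:149223778-149223978: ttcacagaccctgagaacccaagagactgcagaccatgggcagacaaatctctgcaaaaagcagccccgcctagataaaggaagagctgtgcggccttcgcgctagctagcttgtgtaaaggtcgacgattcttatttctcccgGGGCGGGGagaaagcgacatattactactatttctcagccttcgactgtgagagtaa
LARP1 distal, chr5:154071793-154071993: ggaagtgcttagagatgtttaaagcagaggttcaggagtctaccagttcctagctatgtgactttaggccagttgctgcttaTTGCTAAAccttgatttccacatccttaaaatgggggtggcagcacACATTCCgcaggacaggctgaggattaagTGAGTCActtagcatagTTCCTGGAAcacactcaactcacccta

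Of the 6 strongest sites, 5 were at promoters and 1 was distal. Sites were ordered by the lowest −log10 q over the 6 TAM lists, which is the value that chose them, and the leading 6 are given in full. The TATDN3 site (chr1:212964733-212965418) had its summit 5 bp downstream of the TSS of TATDN3, a gene of the TatD nuclease family, and within the promoter window of the divergent gene NSL1, a kinetochore subunit. Its −log10 q values were 56.4, 59.6 and 46.2 in the S100A8-Flag TAM libraries and 78.9, 41.3 and 94 in the S100A9-Flag TAM libraries. In EtOH they were 21.1 and 38.5 for S100A8-Flag and 18.1, 13.1 and 28.1 for S100A9-Flag. All 5 EtOH libraries thus called this site. Each of their values was below each TAM value, an order that the choice by TAM values favors.

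The BNIP1 site (chr5:172571315-172571897) had its summit 37 bp downstream of the TSS of BNIP1, a SNARE protein of the endoplasmic reticulum. Its −log10 q values were 37.7, 48.4 and 46.8 for S100A8-Flag and 47.1, 42.3 and 89.8 for S100A9-Flag in TAM, and 17.6 and 25.4 (S100A8-Flag) and 15.5, 8.49 and 13.3 (S100A9-Flag) in EtOH. The treatments did not overlap here either, which the choice by TAM values again favors. The EtOH values of S100A8-Flag were above those of S100A9-Flag. The EPRS1 site (chr1:220219558-220220171), 175 bp upstream of the coding TSS of the glutamyl-prolyl tRNA synthetase gene, had 36.3, 40.7 and 48.2 (S100A8-Flag) and 36.3, 62.9 and 57 (S100A9-Flag) in TAM, and 17 and 27.4 (S100A8-Flag) and 16.6, 10.3 and 5.39 (S100A9-Flag) in EtOH. The last S100A9-Flag EtOH library fell short of the call at this site.

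The OSMR site (chr5:38845581-38846446), 36 bp downstream of the TSS of the receptor subunit for oncostatin M, an IL6-family cytokine that signals through STAT3, differed from the other leading sites in EtOH. It had 69, 43 and 47.2 (S100A8-Flag) and 35.1, 57 and 41.6 (S100A9-Flag) in TAM and the highest median TAM fold enrichment of the 108 sites, 20.7 over input. In EtOH, the S100A8-Flag lists had no peak and 6.34 and the S100A9-Flag lists had 2.08, no peak and 15, so that 1 of 5 EtOH libraries called it. The DUSP1 site (chr5:172198981-172199765) lay 1339 bp upstream of the coding TSS of the dual-specificity phosphatase that inactivates MAP kinases, and 28 bp upstream of the TSS of an annotated lncRNA. It had 41, 48.3 and 46.2 (S100A8-Flag) and 33, 35.3 and 93.1 (S100A9-Flag) in TAM, and 5.55 and 10.2 (S100A8-Flag) and 10.3, 12.3 and 13.7 (S100A9-Flag) in EtOH, where 4 of 5 libraries called it.

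The only distal site among these 6 was at chr1:149223178-149224809, with its summit 343 bp downstream of the start of RNVU1-18, a variant U1 small nuclear RNA gene. Its −log10 q values were 81.2, 38.7 and 40.4 (S100A8-Flag) and 58, 34 and 62.8 (S100A9-Flag) in TAM, and 33.7 and 20.1 (S100A8-Flag) and 11.2, 22.1 and 11.3 (S100A9-Flag) in EtOH. All 5 EtOH libraries called this site, and its highest EtOH value lay just under its lowest TAM value. Its median TAM fold enrichment, 9.93, was low among the 108 sites, whose median TAM fold ranged from 6.17 to 20.7 with a median of 12.7.

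Across all 108 sites, the lowest TAM value of a site had a median of 22.2 and the highest TAM value a median of 51.3 (range 26.6 to 103). The threshold cut through a continuous range. In 50 sites the lowest value was under 22, and in 25 it was at least 25. Just inside were the UTP25 promoter (chr1:210001113-210001868) at 20.1 and the HSPA9 promoter (chr5:137910804-137911774) at 20.1, both lowest in S100A8-Flag TAM replicate 3. Just outside were a region 24789 bp downstream of the NMNAT2 TSS (chr1:183248870-183249344) and the SBNO2 promoter (chr19:1154978-1155668), both at 19.9 in S100A9-Flag TAM replicate 1. Medians per library lay between 27.0 in S100A8-Flag TAM replicate 3 and 43.3 in S100A9-Flag TAM replicate 3, which also had the most peaks of that strength, 7490 against 1974 to 2751 in the other TAM libraries. S100A9-Flag TAM replicate 3 gave the highest value at 44 of the 108 sites, and S100A8-Flag TAM replicate 3 the lowest at 32. Of the 270 regions with such a peak in all but 1 list, 83 lacked it in S100A8-Flag TAM replicate 3 and 8 in S100A9-Flag TAM replicate 3.

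**Figure D1:**
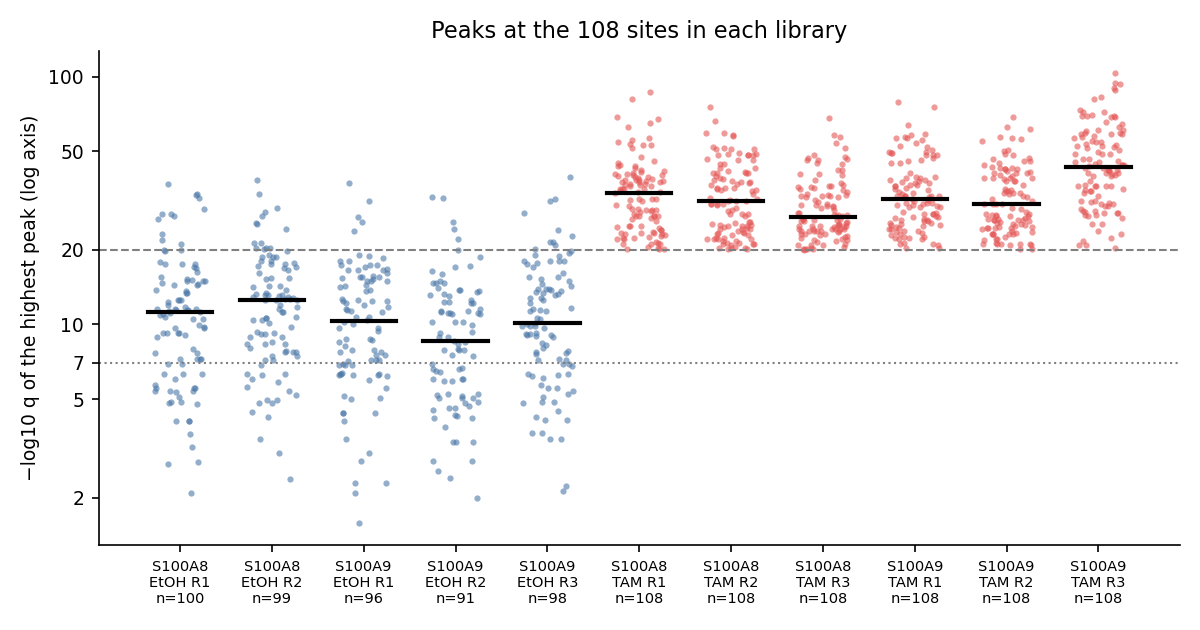
Each point is the −log10 q of the highest peak of 1 library at 1 of the 108 sites (log axis), for the 5 EtOH libraries (blue) and the 6 TAM libraries (red). Bars are medians over the sites with a peak (n under each library), the dashed line is the threshold of 20 that chose the sites in TAM and the dotted line the call at 7. TAM medians run from 27.0 to 43.3 and EtOH medians from 8.57 to 12.6.

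The sites were unevenly spread over the genome. Each chromosome was divided at its largest assembly gap, which marks the centromere or short-arm gap, and the part beyond the gap was taken as the q side. The q side of chromosome 1 held 41 of the 108 sites (38.0%), those of chromosomes 5 and 15 held 16 each (14.8%), that of chromosome 8 held 9 (8.33%) and that of chromosome 13 held 4 (3.70%). These 5 q sides, chosen after their counts were seen, held 86 sites (79.6%) while making up 17.0% of the bases. Every other side held 3 sites at most. The same 5 q sides held 27.6% of the 11915 regions at the threshold, 22.3% of all sites of the series and 33.2% of the 4216 weaker shared sites, which were regions with q at most 1e-07 in all 6 TAM lists that overlapped none of the 108. For 13q alone these shares were 2.64%, 2.50% and 2.80%, so that its 3.70% of the 108 sites was near the background.

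**Figure D2:**
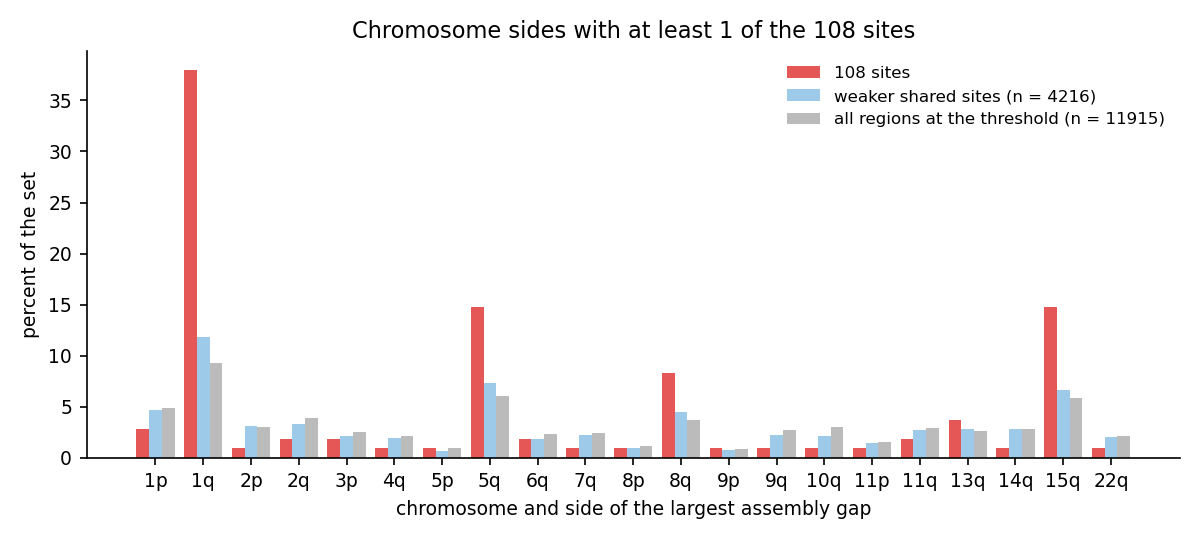
Bars give the percent of each set that lies on a chromosome side, for the 108 sites (red), the weaker shared sites (blue) and all regions at the threshold (gray), on sides with at least 1 of the 108. The q side of chromosome 1 holds 38.0% of the 108 sites and 11.9% of the weaker shared sites.

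The share on these q sides rose with the score that was required. Of the regions shared by all 6 TAM lists, 34.3% of 4324 lay there at a −log10 q of at least 7, 43.8% of 1657 at 10, 60.6% of 396 at 15, 79.6% of 108 at 20, and 7 of 8 at 30. Ranking by fold enrichment gave a lower share. The 5 q sides were chosen from the counts of the 108 sites, which favors the score in this comparison. When the 108 sites with the highest lowest TAM fold enrichment were taken in place of the score, 41 (38.0%) lay on the 5 q sides and 13 on that of chromosome 1. The share of 38.0% was above the 33.2% of weaker shared sites and the 22.3% of all sites. The sets shared 39 sites, which was 36.1% of each.

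**Figure D3:**
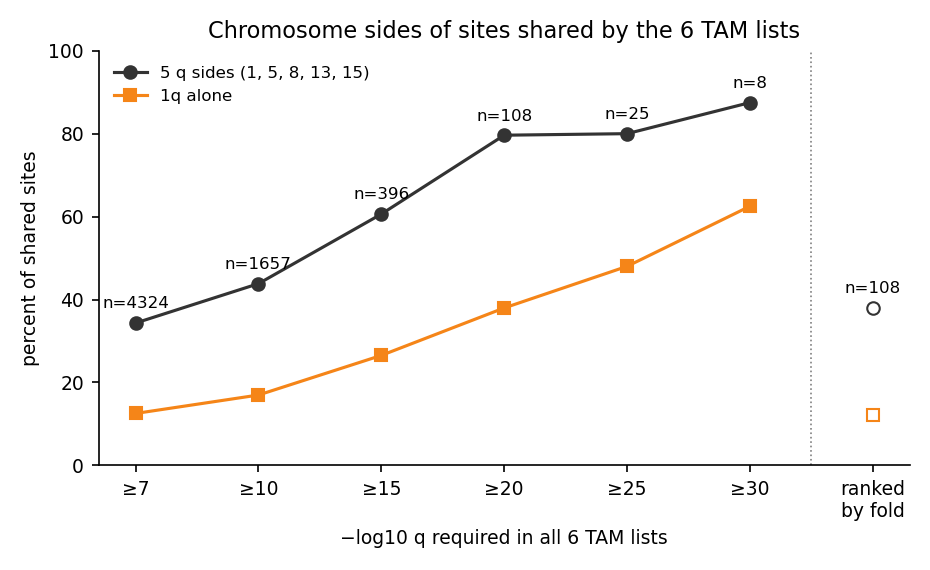
Points give the percent of sites shared by all 6 TAM lists that lie on the q sides of chromosomes 1, 5, 8, 13 and 15 together (circles, n above) or of chromosome 1 alone (squares), against the −log10 q required in every list. The share rises from 34.3% to 87.5%, and the open symbols at the right give 38.0% for as many sites ranked by fold enrichment.

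The EtOH lists, which had no part in choosing the sites, were also concentrated on these sides, by score and less so by fold enrichment. By score, 45.5 to 54% of all peaks at the threshold of 20 in these lists lay there. As many peaks taken by highest fold enrichment lay there in 32.3 to 45.2% of cases. Peaks at the threshold of 20 that lay outside the 108 sites were on the 5 q sides in 38.8 to 50% of cases in the 5 EtOH libraries (26 to 86 peaks each), against 19.8 to 25% of all peaks in these lists. To limit differences in fold enrichment, peaks of 8- to 12-fold enrichment outside the 108 sites were compared within each library. Their median −log10 q was taken as a ratio to that of peaks on all sides other than the 5. On 1q the ratio was 1.14 to 1.27 in the 5 EtOH libraries and 1.28 to 1.41 in the 6 TAM libraries. In EtOH and TAM it was 1.03 to 1.07 and 1.13 to 1.19 on 5q, and 1.03 to 1.13 and 1.08 to 1.17 on 8q. On 15q it was 1.04 to 1.16 and 1.17 to 1.23. Every library was above 1 on each of these sides, and the TAM ratios come from the lists that chose the sites. Peaks on these sides thus had a higher median score within this band of fold enrichment. Fold enrichment inside the band was not compared between sides. The score of a peak depends on the number of reads compared as well as on their ratio. Read depth and copy number along the chromosomes were not measured here, and their part in the concentration was not tested.

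Chromosome 13 stood apart in this comparison. Its ratio was 1.08 to 1.24 in the 5 S100A8-Flag libraries (mean 1.16 ± 0.0602 SD) and 0.953 to 1.01 in the 6 S100A9-Flag libraries (mean 0.986 ± 0.0248 SD), without overlap and in both treatments. Of the 26 chromosome sides with at least 20 such peaks in every library, 13q was the only 1 (3.85%) at which the S100A8-Flag and S100A9-Flag libraries did not overlap. It was singled out after its values were seen, and no test was made. Each tagged protein was expressed in its own cell line. Protein and line therefore cannot be told apart, here or in the other comparisons of the 2 proteins. The 4 sites on 13q did not share a direction. The MRPS31 promoter (chr13:41345132-41345662), of a mitochondrial ribosomal protein, had 33.3 and 24.2 for S100A8-Flag and 6.25, no peak and 4.22 for S100A9-Flag in EtOH. In TAM it had 35.3, 32 and 26 (S100A8-Flag) and 25.6, 32.1 and 40.9 (S100A9-Flag). The ERCC5 promoter (chr13:103497845-103498730), of a DNA repair endonuclease, had 17.5 and 18 (S100A8-Flag) and 7.19, 8.91 and 8.26 (S100A9-Flag) in EtOH. At the KBTBD6 promoter the order in EtOH was the opposite, with 4.06 and no peak (S100A8-Flag) and 4.38, 5.02 and 6.09 (S100A9-Flag). At the site near STARD13 the EtOH values overlapped, with 14.7 and 7.44 (S100A8-Flag) and 6.84, 12.6 and 9.89 (S100A9-Flag). In TAM the values of the proteins overlapped at all 4 sites.

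**Figure D4:**
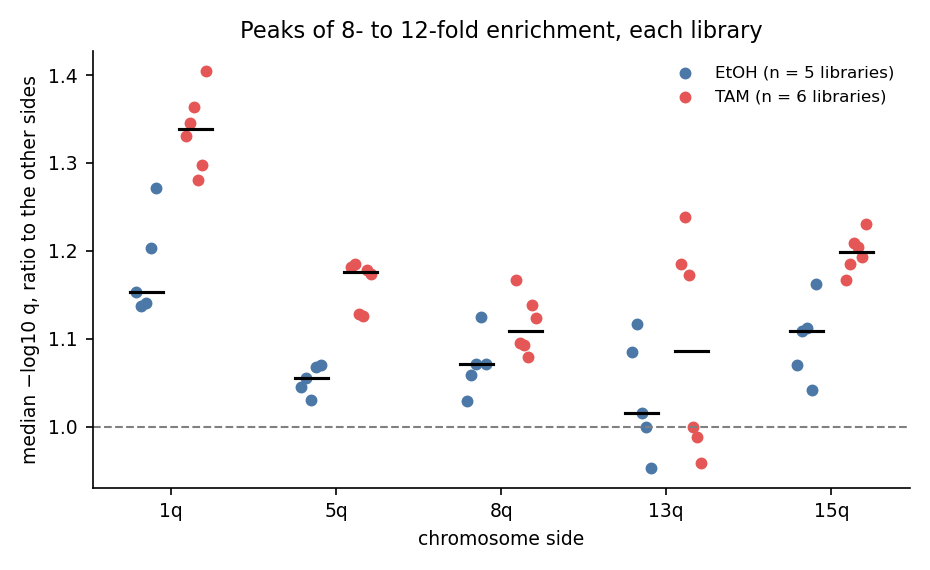
Each point is 1 library (EtOH blue, TAM red) and gives the median −log10 q of its peaks of 8- to 12-fold enrichment on a chromosome side, as a ratio to the median on all sides other than these 5. Bars are medians, the dashed line is equality, and peaks at the 108 sites are left out. All libraries lie above 1 on 1q, 5q, 8q and 15q, and on 13q those above 1.05 are the S100A8-Flag libraries.

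In EtOH most of the 108 sites also had peaks. With a call defined as a peak of q at most 1e-07 that overlaps the region, 102 sites (94.4%) were called in at least 1 of the 5 EtOH libraries, against 45.7% of the 11915 regions and 66.4% of the weaker shared sites. All 5 EtOH libraries called 24 sites (22.2%), against 1.01% of the regions and 1.92% of the weaker shared sites. Every site had a deposited peak of any strength in at least 1 EtOH list, where the background was 77.1%, and 73 had one in all 5, where it was 11.2%. No site reached the threshold of 20 in all 5 EtOH lists, and 31 reached it in at least 1.

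By library, S100A8-Flag EtOH replicate 1 called 73 of the 108 sites (67.6%, background 19.7%), and replicate 2 called 81 (75%, background 20.3%). S100A9-Flag EtOH replicates 1, 2 and 3 called 68 (63.0%, background 15%), 54 (50%, background 8.82%) and 71 (65.7%, background 17.3%). The share of the 108 sites exceeded that of the weaker shared sites in all 5 libraries, 64.3 ± 9.13% against 26.5 ± 7.49% (SD, n = 5), a mean difference of 37.7 ± 2.92 percentage points. This was p = 0.0625 in an exact two-sided sign-flip permutation test over the libraries, which is the smallest p that 5 libraries allow, and 0.25 after Benjamini-Hochberg adjustment over the 5 tests made. The 108 sites were wider than the weaker shared sites (median 762 and 583 bp). When a call had to overlap the 200 bp on either side of the summit, the difference was 38.1 percentage points. It was 41.4 over the 22 sites off the 5 q sides. A call missed in EtOH cannot be told apart from lower depth or fewer peaks in that list.

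**Figure D5:**
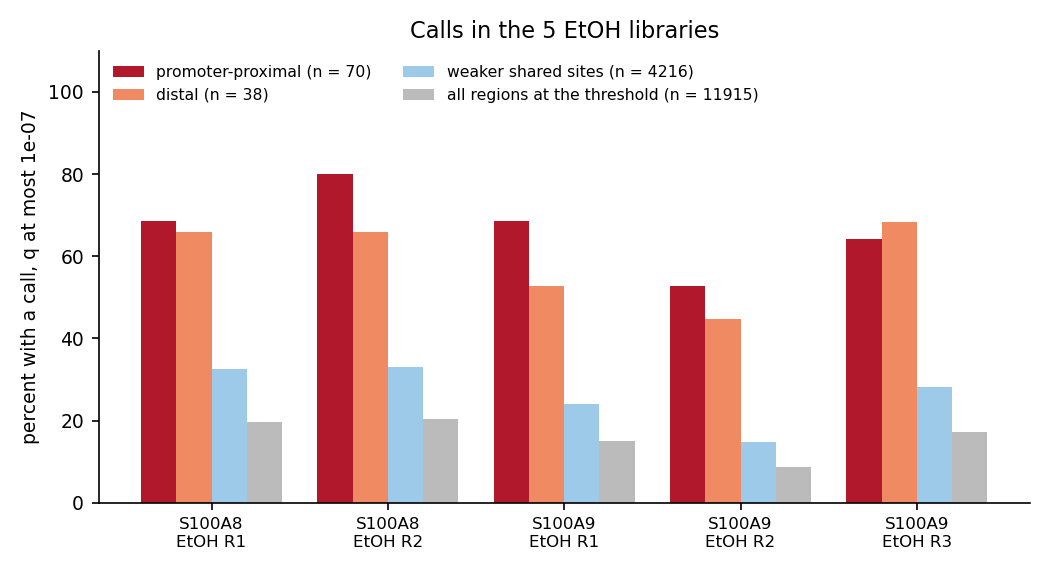
Bars give the percent of sites with a call in each of the 5 EtOH libraries, for the 70 promoter-proximal and 38 distal sites, the weaker shared sites and all regions at the threshold. In every library the first 2 bars (44.7 to 80%) are above the weaker shared sites (14.8 to 33.0%).

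Among EtOH peaks that passed the call, those at the 108 sites ranked unevenly by fold enrichment. Their median percentile was 64.8 in S100A8-Flag EtOH replicate 1, 39.6 in replicate 2, and 52.5, 82.0 and 71.7 in the S100A9-Flag replicates. The difference from the other peaks of the same list averaged 12.1 ± 16.7 points (SD, n = 5) and was negative in S100A8-Flag EtOH replicate 2 (exact sign-flip permutation p = 0.1875, adjusted 0.25). It turned to -4.09 points with EtOH calls at a −log10 q of at least 10, and it was 35.8 points by score in place of fold. S100A8-Flag called 71.3 ± 5.24% of the sites in EtOH (SD, n = 2) and S100A9-Flag 59.6 ± 8.40% (SD, n = 3). The difference was p = 0.2 in an exact two-sided permutation test, the smallest p this design allows, and 0.25 adjusted. The weaker shared sites had the same order, with 32.8% called by S100A8-Flag and 22.4% by S100A9-Flag. It was thus not particular to the 108 sites.

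The 4 sites with the highest lowest EtOH value were all promoters. The NUF2 promoter (chr1:163291440-163292028), of a kinetochore protein, had 27.9 and 33.7 for S100A8-Flag and 15.4, 25.9 and 18.1 for S100A9-Flag. The ZNF609 promoter (chr15:64752471-64752856) had 13.4 and 13.4 (S100A8-Flag) and 25.8, 13.5 and 24.1 (S100A9-Flag). TATDN3, given above, and the promoter of the RNA helicase gene DDX59 (chr1:200638437-200639745), with 19.8 and 12.9 (S100A8-Flag) and 14.2, 32.3 and 32.1 (S100A9-Flag), were the others. In contrast to BNIP1, ZNF609 and DDX59 were strongest in S100A9-Flag libraries. At the other end, 6 sites were called in no EtOH library. These were the promoters of KBTBD6, P4HA2 and NDRG1 and distal sites near BCL9L, CXCL14 and LARP1 (named after their values were seen). The LARP1 distal site printed above (chr5:154071538-154072190) had a peak in only 1 EtOH list, with TAM values of 22.2, 46 and 29.5 (S100A8-Flag) and 22.2, 21 and 42.7 (S100A9-Flag). NDRG1 also had a peak in only 1.

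The summits lay close together between proteins and treatments. The 6 TAM summits of a site spanned a median of 76 bp, and 68 sites spanned at most 100 bp. The median S100A8-Flag and S100A9-Flag summits were a median of 15 bp apart (quartiles 5.75 and 27). The EtOH summit of a deposited peak was a median of 26 to 40 bp from the site's summit in the 5 EtOH libraries, and for EtOH peaks that passed the call the median was 27 bp. In 8 sites the TAM summits spanned over 500 bp. These included the widest site, at NFE2L2 (chr2:178128115-178130277, 2163 bp), which encodes the oxidative stress regulator NRF2. The next widest, 2143 bp, was at BHLHE40 (chr3:5019653-5021795), a transcriptional repressor of the circadian clock.

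At promoter-proximal sites, the median position of the summit was -53.5 bp from the nearest coding TSS (negative upstream, quartiles -125 and -27 bp), against -50 bp for the weaker shared promoter sites. It was upstream of the TSS in 81.4% and 79.6%, and within 100 bp upstream in 47.1% and 47.6%. Coding TSSs of both strands had the summit in their promoter windows at 11 of 70 sites (15.7%), against 13.5% of weaker shared promoter sites. The promoter-proximal share of the 108 sites was 64.8%, against 49.1% of the weaker shared sites and 36.0% of all regions at the threshold. The promoter-proximal sites were called in EtOH at 66.9 ± 9.76% and the distal sites at 59.5 ± 10.3% (SD, n = 5). The difference, 7.38 ± 8.28 percentage points, was positive in 4 of 5 libraries (exact sign-flip permutation p = 0.1875, adjusted 0.25). It changed direction, to -7.14, over the 22 sites off the 5 q sides.

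The 70 promoter sites lay in the promoter windows of 82 genes, 0.415% of 19748 protein-coding genes. Of 23 gene lists, 11 had at least 1 such gene, with 15 genes in all. Among immediate early and stress response genes, 2 of 26 had a site, DUSP1 and ATF3, a stress-induced transcription factor. The ATF3 site (chr1:212781263-212782899) had 36.8, 25 and 29.8 (S100A8-Flag) and 44.8, 21.2 and 36.2 (S100A9-Flag) in TAM, and 9.73 and 6.05 (S100A8-Flag) and 14.3, 13.1 and 21.5 (S100A9-Flag) in EtOH. Its EtOH values were higher for S100A9-Flag than for S100A8-Flag, and the highest lay above the lowest TAM value. None of 10 AP-1 subunit genes had a site among the 108, and 6 (60%) had a weaker shared site, against 11.9% of all protein-coding genes. The counts were 0 and 6 (37.5%) of 16 S100 genes, 0 and 2 (16.7%) of 12 NF-kB genes and 0 and 2 (15.4%) of 13 cytokine and chemokine genes. At a share of 0.415% of all genes, lists this short would mostly hold no site, so that their absence says little.

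Of the IL6, LIF and STAT3 pathway, OSMR was the only gene of 12 with a site. BHLHE40 was the only 1 of 15 circadian clock genes, and its lists had 36.6, 41.2 and 20.9 (S100A8-Flag) and 39.1, 27.7 and 31.6 (S100A9-Flag) in TAM, and 11.2 and 17.7 (S100A8-Flag) and 8.19, 16.5 and 13.9 (S100A9-Flag) in EtOH. Each TAM value was above each EtOH value at this site, an order that the choice by TAM values favors. HSPA9, the mitochondrial HSP70, was 1 of 19 chaperone genes and had a call in 2 EtOH libraries.

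Among the lists of gene expression machinery, shares with a site were 1.82% of initiation factors, 1.37% of splicing factors, 2.33% of RNA polymerase II and Mediator genes and 1.30% of mitochondrial ribosomal proteins, each a single gene, against 0.415% of all protein-coding genes. The initiation factor gene EIF2D was 1 of 55, and its site (chr1:206785450-206786323) had 55.6, 51.2 and 28.9 (S100A8-Flag) and 58.9, 48.9 and 81.1 (S100A9-Flag) in TAM, and 29.3 and 15.4 (S100A8-Flag) and 12.3, 32.8 and 31.6 (S100A9-Flag) in EtOH. Its highest EtOH values exceeded its lowest TAM value, so the treatments overlapped there. HNRNPU, an abundant nuclear RNA-binding protein, was 1 of 73 splicing genes, with 38.2, 31.6 and 23.8 (S100A8-Flag) and 48.5, 27.5 and 60.5 (S100A9-Flag) in TAM and calls in 2 EtOH libraries. MED23, a Mediator subunit that is a known partner of ETS factor ELK1, was 1 of 43 Mediator and RNA polymerase II genes, with 29.2, 44.3 and 26.7 (S100A8-Flag) and 55.6, 34.6 and 50.8 (S100A9-Flag) in TAM and calls in 4. MRPS31 was 1 of 77 mitochondrial ribosomal genes.

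Mitochondrial SLC25 carriers had 2 of 48, the folate carrier SLC25A32, which shares its promoter with DCAF13, and the NAD carrier SLC25A51. The lowest TAM values of these sites were 26.7 and 22.6. ZNF zinc finger genes had 3 of 508 (ZNF609, ZNF354A and ZNF678), with lowest TAM values of 25, 23.3 and 21.8. No site was at any of 86 cytosolic ribosomal protein genes, 48 proteasome genes, 70 replication-dependent histone genes or the 34 genes of a tRNA synthetase list that was chosen by symbol ending and did not hold EPRS1. Shares of the lists with a weaker shared site ranged from 0 to 60%, against 11.9% of all protein-coding genes.

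Of the 38 distal sites, 25 were intergenic, 11 were in introns, 1 was in a coding exon and 1 in an untranslated region of canonical protein-coding transcripts. The distal class was in part a matter of annotation and of the promoter window. Some distal summits lay shortly past the end of that window at a coding TSS. They included summits 319 bp downstream at ZBTB37, 474 at EFCAB2, 608 at MAPK6 and at FAM174B, 724 at NUCKS1 and 740 at NPAS4. In 10 distal sites the summit was within 500 bp of the start of a transcript of any annotated type, as at RNVU1-18. With all annotated genes, 76.9% of the 108 sites were promoter-proximal. In 12 distal sites the nearest coding TSS was over 50 kb away.

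Besides the RNVU1-18 site, the leading distal sites were in an intron of GALNT2, upstream of RD3 and on chromosome 2. The GALNT2 site (chr1:230240229-230241200) was in a gene for an enzyme that starts O-linked glycosylation, 37666 bp from its TSS, and had 42.9, 31.5 and 68.2 (S100A8-Flag) and 48.5, 38 and 40.8 (S100A9-Flag) in TAM, and 8.89 and 4.97 (S100A8-Flag) and 12.5, 13.8 and 9.71 (S100A9-Flag) in EtOH. The RD3 site (chr1:211688418-211689205), 23297 bp upstream of that retinal gene, had 87.2, 37.3 and 54 (S100A8-Flag) and 36.5, 27.9 and 68.6 (S100A9-Flag) in TAM, and 23.2 and 12.6 (S100A8-Flag) and 7.92, 18.7 and 12.8 (S100A9-Flag) in EtOH. At both, each TAM value was above each EtOH value, an order that the choice by TAM values favors. The chromosome 2 site (chr2:91786514-91787599) lay 191410 bp from an assembly gap, had no coding TSS within 1 Mb, and had the lowest median TAM fold of the 108, 6.17. Its values were 32.1, 41 and 27.7 (S100A8-Flag) and 27.1, 29.4 and 69.9 (S100A9-Flag) in TAM and 17 and 13.2 (S100A8-Flag) and 12.4, 6.69 and 11.4 (S100A9-Flag) in EtOH. It thus met the threshold on the score with a fold enrichment that placed it last. Of the 11 sites with a median TAM fold under 10, 8 were on 1q. No site had a second copy of its 201 bp at 95% identity over at least 150 bp on these chromosomes.

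At promoter sites, the shares with each motif near the summit were within 6 percentage points of those of the weaker shared sites. Exact matches on both strands within 100 bp of the summit were counted. At promoter sites, ETS matches were present in 25 of 70 (35.7%), KLF/SP1 in 20 (28.6%), the E-box CACGTG in 8 (11.4%) and C/EBP in 7 (10%). The same shares were 32.7%, 25.5%, 9.37% and 4.69% of the weaker shared promoter sites. In windows 1000 bp to either side of the 70 summits, they were 10%, 1.43%, 5% and 11.4%. The ETS and KLF/SP1 shares were thus higher at the summits than beside them, and the C/EBP share was not. YY1 letters were found at 3 promoter sites, CREB (TGACGTCA) and AP-1 at 2 each, and STAT3, ZBTB33 (TCTCGCGA) and NRF1 (GCGCATGCG) at 1 each. THAP11 (ACTACAATT) and NFY (AGCCAAT) were found at none of the 108 sites.

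At distal sites, AP-1 was present in 11 of 38 (28.9%), against 39.5% of weaker shared distal sites and 3.95% of the flanking windows. Of all distal sites of the series, 34.8% held AP-1 letters, and of all promoter sites, 27.4% held ETS letters. KLF/SP1 was present in 7 (18.4% against 7.88%), C/EBP in 6 (15.8% against 15.9%), TEAD in 4 (10.5% against 4.80%), STAT3 in 3 (7.89% against 2.05%) and the CTCF motif in 1 (2.63% against 5.96%). The sites with KLF/SP1 included ZBTB37, FAM174B and RNVU1-18, with summits 319, 608 and 343 bp downstream of a TSS. Distal sites had a median GC content of 60.9% and 8 CpGs in 201 bp, against 56.7% and 5 at weaker shared distal sites. At promoter sites these were 66.2% and 19.5, against 67.7% and 20. The differences between the sets were not tested, and distal sites close to a TSS were not set apart. Distal sites with AP-1 letters were called in EtOH at 58.2% on average and those without at 60% (difference -1.82 ± 11.5 percentage points, SD, n = 5), with p = 0.6875 in the exact sign-flip permutation test, before and after adjustment. The direction of this difference was not the same in all libraries, being positive in 2 of 5. None of the ETS, KLF/SP1, CREB, THAP11, ZBTB33, AP-1, CTCF, C/EBP and STAT3 letters were found at 23 promoter sites (32.9%, weaker shared 39.1%) and 17 distal sites (44.7%, weaker shared 34.6%).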

How the data were processed

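ChIP-seq reads were aligned with Bowtie2 to hg19 and narrow peaks were called with MACS2 in each library by the authors. Versions are not given in the sources used here. The deposited lists give, per peak, fold enrichment over input (a ratio), the −log10 of p and q, and the summit, and replicates were not pooled. RNA polymerase II and input libraries were not analysed here. Sites were built as stated above, TSSs were from GENCODE 44 lifted to GRCh37, and motifs were matched on both strands of that genome. Calls needed q at most 1e-07. EtOH values were tested over libraries with exact permutation tests, since the TAM values chose the sites. The members and lists were chosen with earlier results of these data known. Named sites were, by a fixed rule, those with the highest lowest values in TAM or EtOH, the leading distal and widest sites, up to 3 per gene list, and those next to the threshold. Merging, overlap, motif search and tests were tested on simulated data with Python 3.11.15, pandas 2.3.3 and pysam 0.24.0. Copies were searched with BLAST+ 2.17.0. Alternatives covered thresholds, merging, annotation and left-out libraries. The lists hold no read counts, so that depth and its precision are unknown. The result for 1 listed gene is not reported here.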

Additional observations from a re-analysis of the deposited data

Results flagged for a closer look

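Outside chromosomes 1 to 22 and X, on sequences that the comparisons did not use, 4 regions had a peak at the threshold of 20 in all 6 TAM lists. They lay on an unlocalized sequence of chromosome 7 and on an unplaced sequence. By the same threshold, 3 regions on such sequences were present in all 5 EtOH lists, against 1 region on chromosomes 1 to 22 and X. They were singled out because they lie in data that the comparisons left out, and no test was made.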

How the results depend on the processing

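The number of sites was 396 at a −log10 q of at least 15 and 8 at 30. It was 116 to 192 when 1 TAM library was left out, 192 without S100A8-Flag TAM replicate 3. Called in at least 1 EtOH library were 86.9% at 15, 100% at 30 and with every deposited peak, 87.0% when sites were ranked by fold, and 90.7 to 94.9% with a library left out. The promoter share was 75% at 30, 76.9% with all annotated genes, and 57.2 to 65.6% with a library left out. The median EtOH summit distance was 34 bp at 15 and at 30, 35 bp with every deposited peak, and 26 to 33 bp with a library left out. The difference between the 108 sites and weaker shared sites stayed positive under all 20 alternatives, from 22.7 to 52.6 percentage points (22.7 when ranked by fold, 34.1 to 38.4 with a library left out). The percentile difference was -4.09 with EtOH calls at 10, 35.8 when ranked by score, and 7.08 to 17.8 with a library left out. The promoter minus distal difference was 17.2 at 15 (exact permutation p = 0.0625). It was -13.3 at 30 and -7.14 off the 5 q sides, and 5.24 to 17.3 with a library left out. All differences at 30, here and below, rest on no more than 8 sites. The AP-1 difference was -10.9 at 15 (exact permutation p = 0.0625) and -20 at 30, 0.404 within 200 bp of the summit, 0.667 with a motif window of 50 bp, and -15.8 to 1.68 with a library left out, 1.68 without S100A8-Flag EtOH replicate 2. S100A8-Flag minus S100A9-Flag was -8.33 at 30 and 6.94 to 15.4 with a library left out. In these cases the cause was not tested. With the replicate number as a block, the S100A8-Flag minus S100A9-Flag difference over numbers 1 and 2 was 14.8 points (exact permutation p = 0.5). The labels do not say whether the numbers pair the samples. Correlations of deviations from the group means were -0.0898 and -0.152, too few to decide it. The ranking by fold and the sides left out were chosen after seeing the data.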
